A study of Mus musculus with 4 samples.

Results

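Chemokines are small secreted proteins that draw leukocytes along gradients through G protein-coupled receptors, and fibroblasts are among their main sources in the inflamed lung. The CC subfamily mostly attracts monocytes, eosinophils and lymphocytes, and the CXC subfamily with the ELR motif mostly attracts neutrophils. Many chemokine genes are switched on by NF-kappaB or interferon signalling, and a few, such as Cxcl12, are made without an inflammatory stimulus. The chemokine genes described here are the 42 rows, with 36 symbols, among 32285 gene rows whose symbols begin with Ccl, Cxcl or Cx3cl followed by a number, with 1 further gene left out. The rule uses the symbols alone.

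The cells came from mouse alveolospheres, co-cultures of alveolar type 2 (AT2) cells and PDGFRα-positive lung fibroblasts. In the YAP/TAZ KD group the AT2 cells were wildtype and the transcriptional co-activators YAP and TAZ were knocked down specifically in the PDGFRα fibroblasts. In the control group the genotype is given as wildtype. All 4 libraries, 2 of KD and 2 of control cultures, received doxycycline at 3 µg/ml, starting on day 7 with collection on day 14, and the controls carry the drug too. The labels call the 2 libraries of a group biological replicates but name no animal or culture, so p-values reflect only how far these libraries differ, which may be technical.

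The libraries held 6508 to 10545 KD cells and 13883 to 15000 control cells, with a median of 4961 to 5946 UMIs (unique molecular identifiers, each a counted RNA molecule) per KD cell and 3876 to 4142 per control cell. Yap1 read 40.9 and 36.4 normalised CPM (UMIs of a gene scaled to a common library total) in KD fibroblasts, against 61.3 and 64.9 normalised CPM in control fibroblasts (log2 fold change, KD over control, -0.71 ± 0.11 SE, adjusted p = 0.00864 by edgeR's quasi-likelihood test with Benjamini-Hochberg adjustment over all genes). Wwtr1, which encodes TAZ, read 194 and 172 normalised CPM in KD fibroblasts against 239 and 231 in controls (log2 -0.36 ± 0.13, adjusted p = 0.115). Cell barcodes shared between libraries numbered 1073. Cell classes are those the authors deposited, and their names are used as given. The 7 inflammatory fibroblast markers, which include Cxcl1, Cxcl5 and Ccl2, summed to 1009 and 886 CPM in KD and 680 and 1095 in control cells of inflammatory fibroblasts 1, against 785 and 794 in KD and 723 and 1015 in control cells of the whole fibroblast compartment, so the KD and control sums of that class lay near those of the whole compartment. In inflammatory fibroblasts 2 they summed to 1482 and 1902 CPM in KD and 1525 and 1824 CPM in control cells, and in AT2 cells of cluster 9 to 1526 and 1832 CPM in KD and 1642 and 1996 CPM in control cells. The classes were made from the same RNA counts, so levels between classes are descriptions with no test.

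The promoters of 5 chemokine genes whose values the results turn on are shown first. Each runs 5′ to 3′ on the gene's strand, with 250 bases before and 50 after the start, from RefSeq on GRCm38.p6, and capitals mark a motif found on either strand. Cxcl1 (chr5:90890995-90891294, plus strand) and Cxcl2 (chr5:90903649-90903948, plus strand) encode neutrophil attractants. Cxcl14 (chr13:56296502-56296801, minus strand) encodes a chemokine made without stimulation in many epithelia and fibroblasts. Ccl9 (chr11:83578587-83578886, minus strand) and Ccl6 (chr11:83593038-83593337, minus strand) encode related mouse CC chemokines that act on myeloid cells.
Cxcl1: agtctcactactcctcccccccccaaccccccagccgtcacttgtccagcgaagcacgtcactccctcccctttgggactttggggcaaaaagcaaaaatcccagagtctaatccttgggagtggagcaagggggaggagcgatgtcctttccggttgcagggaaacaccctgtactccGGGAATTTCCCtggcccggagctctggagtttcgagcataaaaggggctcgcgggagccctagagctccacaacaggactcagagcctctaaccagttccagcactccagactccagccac
Cxcl2: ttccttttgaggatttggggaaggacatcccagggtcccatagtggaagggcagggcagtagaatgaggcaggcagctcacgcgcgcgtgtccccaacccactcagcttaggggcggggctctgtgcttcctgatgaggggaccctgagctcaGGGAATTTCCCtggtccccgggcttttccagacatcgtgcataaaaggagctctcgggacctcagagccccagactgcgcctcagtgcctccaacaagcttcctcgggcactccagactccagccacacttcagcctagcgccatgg
Cxcl14: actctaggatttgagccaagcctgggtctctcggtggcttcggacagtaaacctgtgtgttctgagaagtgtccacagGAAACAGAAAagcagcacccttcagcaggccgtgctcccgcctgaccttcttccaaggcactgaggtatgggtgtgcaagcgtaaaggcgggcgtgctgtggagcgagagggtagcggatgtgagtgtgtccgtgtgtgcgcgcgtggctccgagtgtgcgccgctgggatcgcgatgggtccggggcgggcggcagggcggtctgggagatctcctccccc
Ccl9: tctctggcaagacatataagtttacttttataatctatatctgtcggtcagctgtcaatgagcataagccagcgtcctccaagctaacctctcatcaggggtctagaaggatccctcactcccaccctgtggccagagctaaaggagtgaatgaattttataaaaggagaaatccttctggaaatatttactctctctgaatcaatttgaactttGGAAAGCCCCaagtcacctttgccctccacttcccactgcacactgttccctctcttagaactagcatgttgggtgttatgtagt
Ccl6: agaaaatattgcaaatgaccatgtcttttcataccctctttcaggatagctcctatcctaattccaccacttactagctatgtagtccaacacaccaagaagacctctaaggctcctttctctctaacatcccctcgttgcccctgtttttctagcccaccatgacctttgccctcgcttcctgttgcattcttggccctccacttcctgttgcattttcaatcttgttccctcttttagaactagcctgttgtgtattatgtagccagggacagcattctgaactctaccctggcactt
In Cxcl1 and Cxcl2 the capitals are 2 overlapping matches to the kappaB motif, 1 on each strand, and in Ccl9 they are 1 kappaB match on the minus strand of the window. In Cxcl14 they are the interferon-stimulated response element, GAAA followed by any 2 bases and GAAA. Ccl6 held none of the 4 motifs searched, which also included TEAD (CATTCC) and C/EBP (TTGCNNAA). The kappaB motif was in 6 of 31 chemokine promoters (19.4%, from 25 symbols) and in 4.50% of all 32851 promoters of this length. TEAD was in 3 of the 31 (9.68%) and in 14.7% of all, C/EBP in 6 (19.4%, of which 4 are windows of Ccl27a and Ccl27b, 2 starts each) and in 10.8% of all, and the interferon element in 3 (9.68%) and in 3.44% of all. A match is a description of letters and not a bound site. The promoters of Ccl2, Ccl7, Ccl11, Ccl24, Ccl4, Ccl5, Cxcl5, Cxcl16 and Cxcl17 were not used here.

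Of the 42 rows, 9 had 0 UMIs in all cells, 8 had 1 to 99 and 25 had 100 or more. The symbols Ccl19, Ccl21a, Ccl21b, Ccl21c and Ccl27a stand for near-identical copies on chromosome 4 and on unplaced scaffolds, and no source used here says how reads were shared between copies, so their values are uncertain. A gene is called, and said to have risen or fallen, at an adjusted p under 0.05, and alternatives are other normalisations, tools, filters, cell selections and fits without 1 library. A filter on low counts left 20 chemokine rows to test in each inflammatory class, 27 in the fibroblast compartment and 20 in the epithelial compartment. A row that passed only through the group where it is high had to differ, so counts over tested rows are descriptions.

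The chemokine genes were spread unevenly over the cell classes. Inflammatory fibroblasts 2 had the highest levels among classes with at least 50 cells per library for Ccl2, Ccl7 and Ccl9, whose products attract monocytes and other myeloid cells, and for Cxcl1 and Cxcl2. Ccl2 read 433 and 528 normalised CPM in KD and 307 and 419 in control cells of inflammatory fibroblasts 2. In inflammatory fibroblasts 1 it read 159 and 181 in KD and 96.0 and 159 in control cells. Ccl7 read 215 and 299 normalised CPM in KD and 227 and 228 in control cells of inflammatory fibroblasts 2. KD and control values of Ccl7 overlapped, and those of Ccl2 did not, though neither passed the test there (adjusted p = 0.764 for Ccl7 and 0.378 for Ccl2).

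Other genes were spread over more classes or lay outside the inflammatory classes. Cxcl5, a neutrophil attractant, was highest in KD cells of the EMT-like class, among classes with at least 50 cells per library. It read 377 and 377 normalised CPM in KD and 178 and 194 in control cells there. This rank is given for KD cells only. By cluster, control cells of the EMT-like class read 154 and 170 CPM in cluster 1 and 430 and 366 CPM in cluster 25. Cluster 10 of inflammatory fibroblasts 2 read 227 and 200 CPM in control cells, and 164 and 199 CPM in KD cells. Cxcl14 reached 3336 and 3884 normalised CPM in KD and 1651 and 2062 in control Myo1f+ fibroblasts, and 396 and 356 in KD and 353 and 413 in control inflammatory fibroblasts 1. In Wnt4+ fibroblasts, a class of 1362 and 971 KD cells but 7 and 32 control cells, Cxcl14 read 3660 and 5583 CPM in KD and 3293 and 3913 in control cells, on a scale without library normalisation. Cxcl12, the homeostatic ligand of CXCR4, lay between 155 and 491 normalised CPM in every library of the 8 fibroblast classes tested. It read 329 and 358 normalised CPM in KD and 308 and 491 in control inflammatory fibroblasts 1. Cxcl15, a lung chemokine of mice made by the epithelium, was highest in AT2 cells of cluster 9, at 6122 and 7253 normalised CPM in KD and 3944 and 5603 in control cells. Cxcl16, a transmembrane chemokine, was highest in AT1-like cells (138 and 157 in KD, 110 and 130 in control) and transitional epithelial cells (131 and 166 in KD, 114 and 164 in control).

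Over the single classes, the larger fibroblast classes had the most calls. In the fibroblast class 10 of 25 tested chemokine genes rose and 1 fell, where 8.23% of all genes were called. In the EMT-like class 9 of 21 rose and 1 fell (6.24% of all genes), and in Myofib-like cells 9 of 20 rose and 1 fell (7.33%). Different clusters of cells held most of the fibroblast class in the 2 groups. Cluster 5 held 61.3% and 71.1% of its KD cells against 0.167% and 1.79% of its control cells, and cluster 0 held 2.90% and 1.42% of KD against 57.4% and 47.9% of control cells. Of the Myofib-like cells, cluster 15 held 16.0% and 8.16% in KD against 45.0% and 39.3% in control libraries, and cluster 4 the rest. In the EMT-like class cluster 1 was the largest in every library, at 82.0% and 78.2% in KD and 87.9% and 86.5% in control libraries. Cluster 25 held 18.0% and 21.9% of its KD cells against 5.34% and 12.2% of its control cells. Cluster 33 held 0% of its KD cells in both libraries and 6.74% and 1.32% of its control cells. Clusters were made from the same RNA, and the part of this makeup in the class values was not tested. Cycling fibroblasts had 3 of 20 higher and 1 lower (2.31%), Myo1f+ fibroblasts 3 of 12 higher and 1 lower (2.48%), and unknown mesenchymal cells 1 of 14 higher (1.31%). Among epithelial classes there were 3 of 17 higher in transitional epithelial cells (0.304%), 2 of 15 higher in AT2 cells of cluster 9 (0.922%), 1 of 14 higher and 1 lower in cycling AT2 cells (1.34%), and 1 of 15 higher and 1 lower in AT1-like cells (0.51%).

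**Figure D1:**
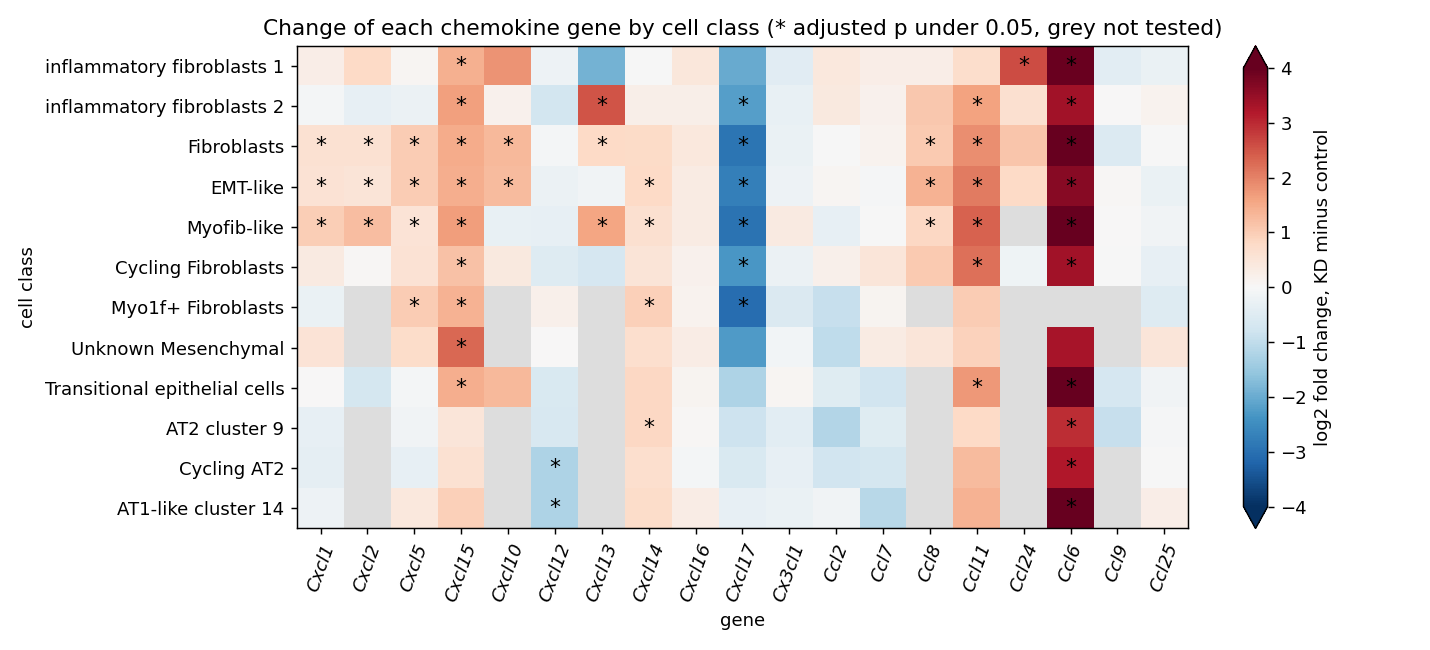
Log2 fold change (KD minus control, colour, with the scale ending at 4 in either direction) of each chemokine gene (columns) in each cell class (rows), with an asterisk where the adjusted p was under 0.05 and grey where the gene was not tested. Ccl6 and Cxcl15 were higher in KD in most classes, and Ccl11 rose in 5 of 8 fibroblast classes.

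Within inflammatory fibroblasts 1, 3 of 20 tested chemokine genes rose with the knockdown and none fell, where 2.53% of all 11689 genes tested were called. At an unadjusted p under 0.05 there were 10 of the 20, beside 14.8% of all genes. The median log2 fold change over the 20 was 0.27, beside 0.00 over all genes. Fold change moved with gene span across genes, which are not independent replicates: Spearman's rho was -0.35 over 11688 genes in this class, -0.23 over 12069 in inflammatory fibroblasts 2, -0.23 over 17474 in the fibroblast compartment and -0.41 over 13948 in the epithelium. Longer genes had the lower values, and the part of span in the medians of the chemokine genes was not tested. Those called were Ccl24 (eotaxin-2, an eosinophil attractant), Ccl6 and Cxcl15. Ccl24 read 15.4 and 3.81 normalised CPM in KD cells against 1.33 and 1.57 in control cells (log2 2.60 ± 0.57, adjusted p = 0.0119). KD library 1 stood above the other library, and the call was lost without KD library 1 (adjusted p = 0.44) and without control library 1 (0.0576), where 11 alternatives gave 5.24e-07 to 0.44. Ccl6 read 15.4 and 10.3 normalised CPM in KD against 1.52 and 0.157 in control cells (log2 3.96 ± 0.56, adjusted p = 0.000178). Cxcl15 read 157 and 85.9 normalised CPM in KD against 46.1 and 44.4 in control cells (log2 1.41 ± 0.22, adjusted p = 0.000447). KD values were above the control values for both genes. Ccl24 and Ccl6 passed the filter on low counts in this class only through the KD libraries, so their tests are no support. Among cells with at most 20% mitochondrial UMIs the adjusted p of Cxcl15 was 0.38, the highest of 12 alternatives (lowest 3.82e-13). Of the 20 chemokine genes 11 were tested among those cells, Ccl6 and Ccl24 not among them, and none was called, where 0.183% of all 8214 genes were. The 8 AT2 markers summed to 1910 and 955 CPM in KD against 746 and 806 CPM in control cells of this class, and 3 of the 8 rose. Their part in the Cxcl15 values was not tested.

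Within inflammatory fibroblasts 2, 4 of 20 tested chemokine genes rose and 1 fell, where 2.56% of all 12070 genes tested were called. The median over the 20 was 0.17 on the log2 scale, beside 0.00 over all genes. Ccl11, Cxcl13, Ccl6 and Cxcl15 rose and Cxcl17 fell. Ccl11, eotaxin, an attractant of eosinophils through CCR3, read 106 and 52.8 normalised CPM in KD against 23.6 and 29.3 in control cells (log2 1.60 ± 0.24, adjusted p = 0.000243). The groups did not overlap, and the call was lost without KD library 1 (adjusted p = 0.0711, where 12 alternatives gave 3.72e-10 to 0.0711). Cxcl13, the B cell attractant, read 5.32 and 34.9 normalised CPM in KD against 2.26 and 4.34 in control cells (log2 2.50 ± 0.52, adjusted p = 0.00607). It rested on few molecules: KD library 2 held 37 UMIs in 8 cells, of which 1 cell held 21, and without KD library 2 the adjusted p was 0.83, the highest of 11 alternatives (lowest 1.63e-08). Under DESeq2 it was 0.651, and under limma voom 0.0709. So the KD values of Cxcl13 were far apart and their call rested on KD library 2.

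Ccl6 and Cxcl15 rose in inflammatory fibroblasts 2 as they did in the other inflammatory class. Ccl6 read 13.7 and 12.3 normalised CPM in KD against 1.29 and 1.20 in control cells (log2 3.35 ± 0.46, adjusted p = 8.59e-05). It passed the filter on low counts there only through the KD libraries, so its test is no support. Cxcl15 read 163 and 84.8 normalised CPM in KD against 39.1 and 40.2 in control cells (log2 1.65 ± 0.22, adjusted p = 7.79e-05). Among cells with at most 20% mitochondrial UMIs Cxcl15 had an adjusted p of 0.376, the highest of 12 alternatives (lowest 2.59e-12). Cxcl17 fell, at 2.28 and 4.71 normalised CPM in KD against 21.8 and 9.72 in control cells (log2 -2.21 ± 0.54, adjusted p = 0.0235). Its call was lost under DESeq2 (0.136), limma voom (0.153) and a gene length correction (0.0629), and without KD library 1 (0.202) or control library 1 (0.397), with 11 alternatives at 5.92e-06 to 0.397. Markers of epithelial cells moved with both genes in this class. The 8 AT2 markers summed to 1889 and 942 CPM in KD against 648 and 701 CPM in control cells, and 4 of the 8 rose. The 6 airway secretory markers summed to 0 and 218 CPM in KD against 1262 and 246 CPM in control cells, and 3 of the 5 tested fell. Their part in Cxcl15 and Cxcl17 was not tested.

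The most abundant myeloid attractants in the 2 inflammatory classes did not pass the test in either. In inflammatory fibroblasts 2, Cxcl1 read 366 and 553 normalised CPM in KD against 444 and 521 in control cells, with overlapping groups (log2 -0.07 ± 0.21, adjusted p = 0.923). Cxcl2 read 91.2 and 139 normalised CPM in KD against 115 and 171 in control cells there (log2 -0.32 ± 0.22, adjusted p = 0.557). The 2 clusters of this class went opposite ways for Cxcl1. Cluster 10 read 220 and 332 CPM in KD against 398 and 436 in control cells. Cluster 29, with 23 and 26 KD cells, read 939 and 1226 CPM in KD against 686 and 834 in control cells. These clusters were not tested. In inflammatory fibroblasts 1, Cxcl1 read 108 and 109 normalised CPM in KD against 76.7 and 103 in control cells (log2 0.28 ± 0.19, adjusted p = 0.515). Ccl25, a ligand of CCR9, read 25.2 and 22.3 normalised CPM in KD and 29.7 and 27.3 in control cells of inflammatory fibroblasts 1. Between 22.3 and 37.7 normalised CPM of Ccl25 were found in every library of both inflammatory classes, with no call. Cxcl16 also had no call in either class.

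In the fibroblast compartment, which sums 11 deposited fibroblast, smooth muscle, EMT-like and unknown mesenchymal classes, 8 of 27 tested chemokine genes rose with the knockdown and 3 fell, where 10.6% of all 17481 genes tested were called, 4.42% higher and 6.22% lower in KD. The median over the 27 was 0.36 on the log2 scale, beside 0.01 over all genes. The genes that rose were Ccl11, Ccl8, Ccl12, Ccl4, Ccl6, Cxcl5, Cxcl14 and Cxcl15. Those that fell were Ccl9, Ccl5 and Cxcl17. The compartment's class makeup differed between the groups: the 2 inflammatory classes made up 5.31% and 6.23% of KD fibroblast cells against 18.0% and 19.6% of control fibroblast cells.

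**Figure D2:**
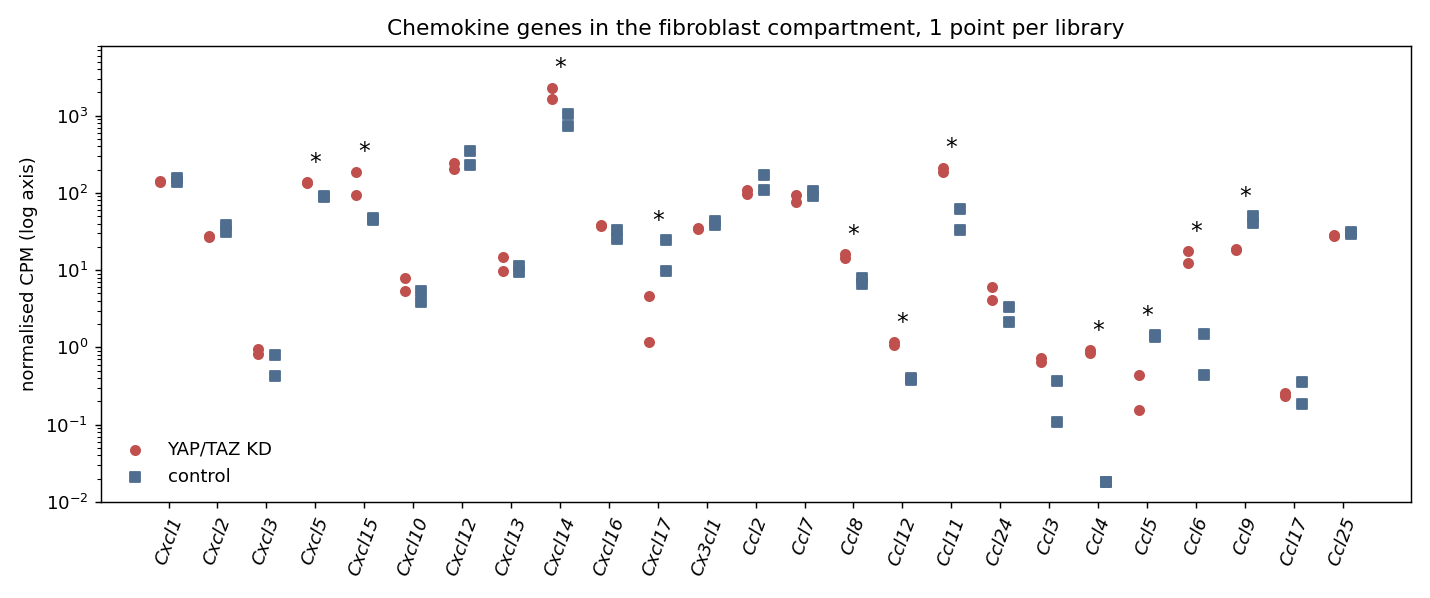
Normalised CPM (log axis) of the chemokine genes in the fibroblast compartment, with 1 point per library, KD (red circles) left of control (blue squares), and an asterisk where the adjusted p was under 0.05. The KD values of Ccl11 sit at 188 and 212, above the control values of 33.4 and 62.1, and those of Ccl9 at 19.1 and 18.4, below the control values of 40.7 and 49.8.

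Of the eosinophil attractants, Ccl11 rose and Ccl24 did not pass in the fibroblast compartment. Ccl11 read 188 and 212 normalised CPM in KD fibroblasts against 33.4 and 62.1 in control fibroblasts (log2 2.07 ± 0.26, adjusted p = 0.00425), and both KD libraries were above both controls. The rise was not confined to 1 class. In the EMT-like class Ccl11 read 337 and 376 normalised CPM in KD against 54.1 and 116 in control cells (log2 2.07 ± 0.26, adjusted p = 0.000211). In Myofib-like cells it read 191 and 279 in KD against 35.2 and 55.5 in control cells (log2 2.37 ± 0.22). Ccl11 was called in 5 of the 8 fibroblast classes tested, and its log2 fold change over all 8 ran between 0.72, in inflammatory fibroblasts 1, and 2.37. With every fibroblast class at the same weight the log2 fold change of Ccl11 was 1.92 (adjusted p = 0.00416), and all 14 alternatives kept its call (adjusted p 8.45e-34 to 0.00711). Within the fibroblast class, cluster 8 read 258 and 385 CPM of Ccl11 in KD against 47.5 and 92.9 CPM in control cells, and cluster 11 read 202 and 159 CPM in KD against 24.9 and 56.4 CPM in control cells. These are the clusters of that class with at least 50 cells in every library, and KD values were above the controls in both. Ccl24 read 4.13 and 5.98 normalised CPM in KD against 2.15 and 3.31 in control fibroblasts (adjusted p = 0.0661).

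More of the fibroblasts as a whole held a Ccl11 molecule in the KD libraries. After every fibroblast was thinned to 2000 UMIs, 19.3% (95% exact Clopper-Pearson interval 18.4% to 20.2%) and 20.5% (19.4% to 21.6%) of KD fibroblasts had a UMI of Ccl11, against 5.74% (5.32% to 6.19%) and 8.72% (8.19% to 9.26%) of control fibroblasts. Thinning kept the 7220 and 5078 KD fibroblasts and the 11145 and 10854 control fibroblasts that had at least 2000 UMIs. Unthinned, the shares were 32.2% and 36.0% in KD against 9.97% and 15.1% in control fibroblasts. In AT2 cells of cluster 9, epithelial cells given for comparison, the thinned shares were 2.51% and 1.35% in KD and 1.11% and 0.866% in control cells, at median depths of 4862 and 5454 UMIs in KD and 3614 and 3812 in control AT2 cells, beside 4683 and 5836 in KD and 3764 and 4037 in control fibroblasts. UMIs per positive fibroblast were 1.82 and 2.12 in KD against 1.27 and 1.45 in control cells. Within the inflammatory classes the shares thinned to 2000 UMIs overlapped. They were 13.7% and 5.36% in KD against 4.49% and 6.02% in control cells of inflammatory fibroblasts 2. In inflammatory fibroblasts 1, KD library 1 stood at 9.05%, and KD library 2, at 3.865%, lay below both control libraries. Thinned to 1000 UMIs, KD shares were above the controls in both classes, at 6.86% and 8.93% against 2.41% and 2.67% in inflammatory fibroblasts 2. An exact two-sided permutation test over 2 against 2 libraries cannot give a p under 0.33, and the intervals cover counting error only.

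Ccl8 and Ccl12, monocyte attractants of the same chromosome 11 cluster, also rose in the fibroblast compartment. Ccl8 read 14.6 and 16.1 normalised CPM in KD against 6.54 and 7.98 in control fibroblasts (log2 1.08 ± 0.14, adjusted p = 0.00455). Ccl8 rose within the fibroblast, EMT-like and Myofib-like classes too, by 0.83 to 1.39 on the log2 scale, and kept its call under all 14 alternatives. Ccl12 was near the limit of detection, at 1.17 and 1.07 normalised CPM in KD against 0.376 and 0.402 in control fibroblasts, or 82 KD and 43 control UMIs in all (log2 1.52 ± 0.28, adjusted p = 0.0151). Its call was lost without KD library 1 (adjusted p = 0.0597) and with every class at the same weight (0.0528), within a range of 0.00266 to 0.0597 over 14 alternatives. Ccl2 and Ccl7, beside them on the chromosome, did not pass: Ccl2 read 98.2 and 108 normalised CPM in KD against 109 and 169 in control fibroblasts, and Ccl7 read 77.4 and 95.1 against 90.7 and 107.

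**Figure D3:**
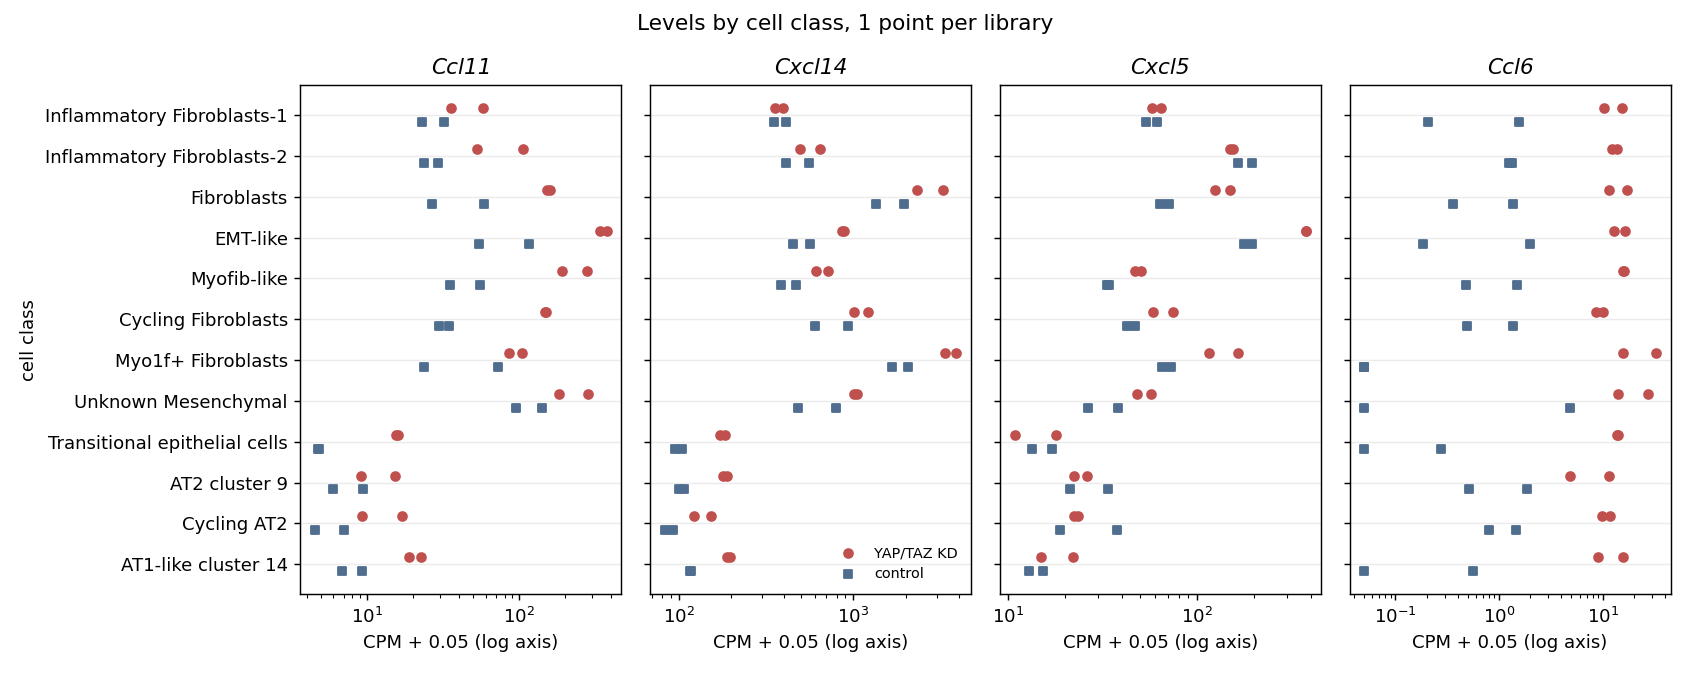
CPM plus 0.05 (log axis) of Ccl11, Cxcl14, Cxcl5 and Ccl6 by cell class, with 1 point per library, KD (red circles) drawn above control (blue squares). KD values of Ccl11 and Ccl6 lie above the controls in every fibroblast class drawn, whereas those of Cxcl14 and Cxcl5 overlap the controls in inflammatory fibroblasts 1.

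Cxcl14 rose in the fibroblast compartment, at 1662 and 2316 normalised CPM in KD against 733 and 1065 in control fibroblasts (log2 1.15 ± 0.24, adjusted p = 0.0253). Its call was lost without KD library 2 (adjusted p = 0.0877) and with every class at the same weight, where the log2 fold change was 0.70 (adjusted p = 0.103), over a range of 6.85e-08 to 0.103 in 14 alternatives. Within classes it was called in EMT-like, Myofib-like and Myo1f+ fibroblasts. In cluster 8 of the fibroblast class Cxcl14 read 1327 and 1966 CPM in KD against 758 and 989 CPM in control cells. It overlapped in cluster 11 (489 and 401 in KD, 347 and 458 in control) and cluster 0 (1626 and 2663 in KD, 1575 and 2476 in control). In cluster 5 it read 2663 and 3759 CPM in KD against 3897 CPM in control library 2. These clusters were not tested. After thinning, 72.2% and 73.1% of KD fibroblasts had a UMI of Cxcl14, against 52.3% and 56.5% of control fibroblasts. In inflammatory fibroblasts 1 the shares were 41.2% and 38.7% in KD and 36.5% and 36.7% in control cells. In AT2 cells of cluster 9 the shares were 30.4% and 27.8% in KD and 21.3% and 19.5% in control cells.

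Among the neutrophil attractant genes Cxcl5, Cxcl1 and Cxcl2, Cxcl5 rose in the fibroblast compartment and Cxcl1 and Cxcl2 did not pass. Cxcl5 read 136 and 137 normalised CPM in KD against 90.6 and 88.3 in control fibroblasts (log2 0.61 ± 0.11, adjusted p = 0.0135). Its call was lost without KD library 1 (adjusted p = 0.0613), without KD library 2 (0.0676) and among cells with at most 20% mitochondrial UMIs (0.549), where 14 alternatives gave 0.000166 to 0.549. Within the EMT-like class, where 6.24% of all genes were called, Cxcl5, Cxcl1 and Cxcl2 rose by 1.02, 0.58 and 0.51 on the log2 scale. All 3 also rose in the fibroblast class (8.23% of all genes called) and the Myofib-like class (7.33%), with log2 fold changes of 0.53 to 1.24, in classes whose clusters differed between the groups as given above. In cluster 8 of the fibroblast class Cxcl5 read 122 and 169 CPM in KD against 77.0 and 70.2 CPM in control cells, and in cluster 11 it read 129 and 148 CPM in KD against 48.1 and 51.6 CPM in control cells. In cluster 5, Cxcl5 read 118 and 150 CPM in KD against 129 CPM in control library 2, where control library 1 had 7 cells, so the values overlapped there. Cxcl2 overlapped too, at 15.9 and 46.2 CPM in KD and 19.5 and 20.3 CPM in control cells of cluster 11. In Myofib-like cells the clusters went opposite ways for Cxcl2 and Cxcl1. Cxcl2 read 167 and 339 CPM in KD against 22.2 and 20.7 CPM in control cells of cluster 15. In cluster 4 it read 1.53 and 1.87 CPM in KD against 7.68 and 5.30 CPM in control cells. Cxcl1 read 439 and 624 CPM in KD against 52.5 and 54.8 CPM in control cells of cluster 15. In cluster 4 Cxcl1 read 26.01 and 16.07 CPM in KD against 38.99 and 33.64 CPM in control cells. Cxcl5 overlapped in cluster 4 (43.99 and 47.83 in KD, 44.21 and 47.15 in control). In cluster 15 Cxcl5 read 48.6 and 80.9 CPM in KD against 25.1 and 19.1 CPM in control cells. Cluster 15 held 99 and 39 KD cells. These clusters were not tested. In the EMT-like class Cxcl1 read 338 and 298 normalised CPM in KD against 208 and 220 in control cells (adjusted p = 0.0458). In its cluster 1, Cxcl5 read 290 and 301 CPM in KD against 154 and 170 in control cells, and Cxcl1 277 and 274 against 186 and 199. In its cluster 25, Cxcl5 read 605 and 682 CPM in KD against 430 and 366. Cxcl1 overlapped there (481 and 414 in KD, 433 and 326 in control). These clusters were not tested either. Cxcl10, an interferon-induced ligand of CXCR3, rose in the fibroblast class, at 8.14 and 6.95 normalised CPM in KD against 3.28 and 2.89 in control cells (log2 1.29 ± 0.22, adjusted p = 0.00429). In its cluster 8 Cxcl10 read 17.6 and 7.53 CPM in KD against 3.00 and 0.812 CPM in control cells, or 54 and 15 UMIs in KD against 6 and 2 in control cells. It also rose in the EMT-like class (log2 1.26 ± 0.36, adjusted p = 0.0464).

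The knockdown effect differed between the inflammatory classes together and the other fibroblast classes together for 6 of 26 chemokine genes, where 2.31% of all 16312 genes tested differed. Cxcl5, Cxcl14, Cxcl1, Cxcl2 and Ccl11 had a lower effect in the inflammatory classes, and Ccl2 a higher one. For Cxcl5 the difference was -1.08 ± 0.09 on the log2 scale (adjusted p = 3.04e-07): it read 104 and 95.6 normalised CPM in KD against 129 and 114 in control inflammatory cells, and 139 and 141 in KD against 80.7 and 79.4 in control cells of the other classes. KD values were below the control values in inflammatory cells and above them in the other classes. For Cxcl14 the difference was -0.98 ± 0.10 (adjusted p = 1.25e-05), with 439 and 462 normalised CPM in KD against 382 and 484 in control inflammatory cells. The differences of Cxcl1, Cxcl2 and Ccl11 were -0.53 ± 0.09, -0.64 ± 0.15 and -0.82 ± 0.21. Their adjusted p-values were 0.00211, 0.027 and 0.047. The difference of Cxcl1 was lost without control library 2 (0.0934, the highest of 6 alternatives, lowest 8.91e-21), and so was that of Cxcl2 (0.468, lowest 1.77e-06). That of Ccl11 was lost without KD library 2 (0.158) and under RLE normalisation (0.0983), with 6 alternatives at 6.69e-27 to 0.158.

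Fitted alone, 4 of 21 tested chemokine genes were called in the inflammatory classes together, where 2.16% of all genes were, and 10 of 27 in the other classes together, where 10.5% were. Ccl2 differed by 0.54 ± 0.08 (adjusted p = 0.000217). It read 289 and 308 normalised CPM in KD against 209 and 291 in control inflammatory cells, and 84.2 and 89.6 in KD against 82.6 and 129 in control cells of the other classes, with neither effect called alone. The other classes held different cells in the 2 groups: Wnt4+ and Tgfbi+ fibroblasts numbered 1362 and 971, and 931 and 404, in the KD libraries, against 7 and 32, and 5 and 38, in the controls. Ccl2 read 28.0 and 26.1 CPM in KD Wnt4+ fibroblasts. How far this makeup enters the differences was not tested.

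Between the 2 inflammatory classes, a comparison added after the values were seen, the effect differed for 2 of 20 chemokine genes, where 1.13% of all 12431 genes tested differed. Cxcl13 differed by 4.56 ± 0.67 (inflammatory fibroblasts 2 minus 1, adjusted p = 0.000764), and its adjusted p was 0.227 without KD library 2, the highest of 6 alternatives (lowest 1.46e-09). In inflammatory fibroblasts 1 it read 0.699 and 1.63 normalised CPM in KD against 4.57 and 4.70 in control cells, the opposite direction to inflammatory fibroblasts 2. These values came from 1 and 3 UMIs in KD and 24 and 30 UMIs in control cells, so the Cxcl13 difference rested on few molecules. Cxcl12 differed by -0.54 ± 0.11 (adjusted p = 0.0171), and the difference was lost without either control library or KD library 1, with 6 alternatives at 0.000137 to 0.16. It read 193 and 252 normalised CPM in KD against 286 and 448 in control inflammatory fibroblasts 2.

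Ccl9 fell in the fibroblast compartment and did not pass the test within the class that holds most of it. It read 19.1 and 18.4 normalised CPM in KD against 40.7 and 49.8 in control fibroblasts (log2 -1.27 ± 0.13, adjusted p = 0.00185), and the groups did not overlap. Inflammatory fibroblasts 2 carried 44.6% and 60.3% of the fibroblast UMIs of Ccl9 in KD libraries and 74.4% and 79.9% in control libraries. Within that class Ccl9 read 254 and 352 normalised CPM in KD against 273 and 326 in control cells, with overlapping groups (log2 0.01 ± 0.20, adjusted p = 0.989). The class made up 2.34% and 2.19% of KD fibroblast cells against 8.60% and 9.14% of control fibroblast cells. The fall was lost with every fibroblast class at the same weight (log2 -0.02, adjusted p = 0.935) and without the 2 inflammatory classes (log2 -0.32, adjusted p = 0.289), and 14 alternatives gave adjusted p from 5.01e-18 to 0.935.

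Inside that class Ccl9 lay in 1 of its 2 clusters. Cluster 10 read 295 and 485 CPM in KD and 328 and 411 in control cells, and cluster 29 read 4.01 and 3.69 CPM in KD and 7.80 and 14.6 in control cells. Cluster 29 made up 13.1% and 23.2% of the class in KD and 13.9% and 19.3% in control libraries. After thinning to 2000 UMIs, 17.1% and 19.6% of KD cells of inflammatory fibroblasts 2 had a UMI of Ccl9, against 24.7% and 22.4% of control cells.

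**Figure D4:**
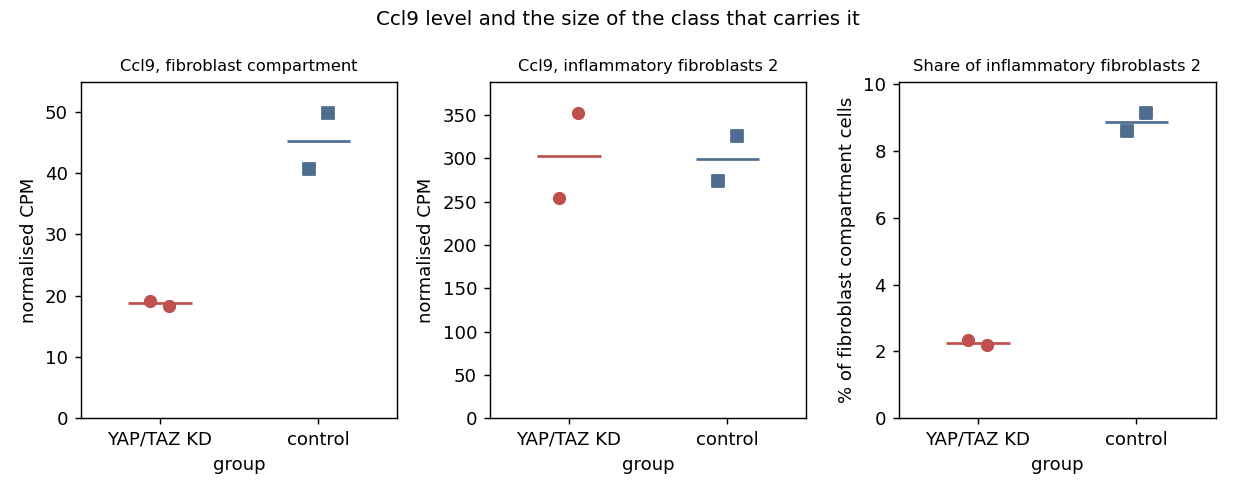
Ccl9 level in the fibroblast compartment (left, normalised CPM), Ccl9 level in inflammatory fibroblasts 2 (middle, normalised CPM) and the share of fibroblast compartment cells in that class (right, %), with 1 point per library and lines at group means, KD left of control. The compartment level and the share are lower in KD, and the level within the class overlaps at 254 and 352 in KD and 273 and 326 in control.

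Ccl6 lies 9.25 kb from Ccl9 on chromosome 11 and rose in the fibroblast compartment. It read 17.6 and 12.4 normalised CPM in KD against 1.49 and 0.438 in control fibroblasts (log2 3.96 ± 0.41, adjusted p = 0.00207), and the call held under all 14 alternatives. Ccl6 rose in 6 of 7 fibroblast classes and in 4 of 4 epithelial classes tested. In epithelial cells it read 12.5 and 10.6 normalised CPM in KD against 0.828 and 0.352 in control cells (log2 4.22 ± 0.35, adjusted p = 1.64e-05). There it passed the filter on low counts only through the KD libraries, so that test is no support and the class counts are descriptions. KD AT2 cells of cluster 9 held Ccl6 at 66.0% and 39.0% of the fibroblast level, against 119% and 103% in controls. The control ratios rested on few molecules, since 0.820% of 488 and 0.203% of 492 control AT2 cells had a UMI of Ccl6.

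Markers of macrophages moved with Ccl6. Of 12 macrophage and leukocyte markers, 8 were tested in the fibroblast compartment, 5 rose and none fell, where 4.42% of all genes rose, and they summed to 27.7 and 21.4 CPM in KD against 11.8 and 9.14 in control fibroblasts. One of the 12 was at 0 in all libraries there. In the epithelial compartment 7 were tested and 4 rose, where 1.44% of all genes were called, with sums of 33.3 and 37.5 CPM in KD against 14.6 and 9.72 CPM in control cells. C1qb, a complement gene of macrophages, read 5.42 and 3.61 normalised CPM in KD against 0.323 and 0.073 in control fibroblasts. Ccl4, a chemokine made by activated macrophages, had 65 UMIs over the KD fibroblasts against 2 over the controls, a ratio of rates of 47.6 (95% counting interval 12.7 to 402), and read 0.917 and 0.859 normalised CPM in KD against 0.0179 and 0.0183 in control libraries. It passed the filter on low counts only through the KD libraries, so its test is no support. Without the 202 fibroblasts that held a UMI of Ptprc or Tyrobp, Ccl6 had a log2 fold change of 3.94 and kept its call. The part that free RNA of other cells has in these levels was not tested.

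Cxcl15 and Cxcl17 moved with markers of epithelial cells. Cxcl15 read 188 and 94.4 normalised CPM in KD against 44.7 and 47.6 in control fibroblasts (log2 1.61 ± 0.28, adjusted p = 0.012), and was called in all 8 fibroblast classes tested. KD fibroblasts held Cxcl15 at 3.02% and 1.29% of the AT2 level of cluster 9, against 1.16% and 0.873% in controls. The 8 AT2 markers stood at 2.63% and 1.09% of the AT2 level in KD and 1.10% and 0.869% in control fibroblasts, and KD library 1 was the highest on both measures. Of the 8 markers, 3 rose in the fibroblast compartment and none fell. Cxcl17, a mucosal chemokine of airway epithelium, read 1.17 and 4.68 normalised CPM in KD against 24.2 and 9.81 in control fibroblasts (log2 -2.57 ± 0.58, adjusted p = 0.0317), and was lost under DESeq2 (0.0963, the highest of 14 alternatives, lowest 1.33e-61). The 6 airway secretory markers summed to 1.13 and 268 CPM in KD against 1363 and 287 CPM in control fibroblasts, with none at 0 in every library and none of the 6 called, and control library 1 was the highest on both measures. Their part in these results was not tested.

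Ccl5, a T cell and monocyte attractant, fell in the fibroblast compartment on few molecules. It read 0.153 and 0.444 normalised CPM in KD against 1.43 and 1.35 in control fibroblasts, or 21 KD and 154 control UMIs (log2 -2.25 ± 0.40, adjusted p = 0.0139). The call was lost among cells with at most 20% mitochondrial UMIs (adjusted p = 0.0541, the highest of 14 alternatives, lowest 1.63e-06). Lymphocyte markers summed to 1.23 and 1.10 CPM in KD and 1.48 and 0.894 CPM in control fibroblasts, with 2 of 5 at 0.

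**Figure D5:**
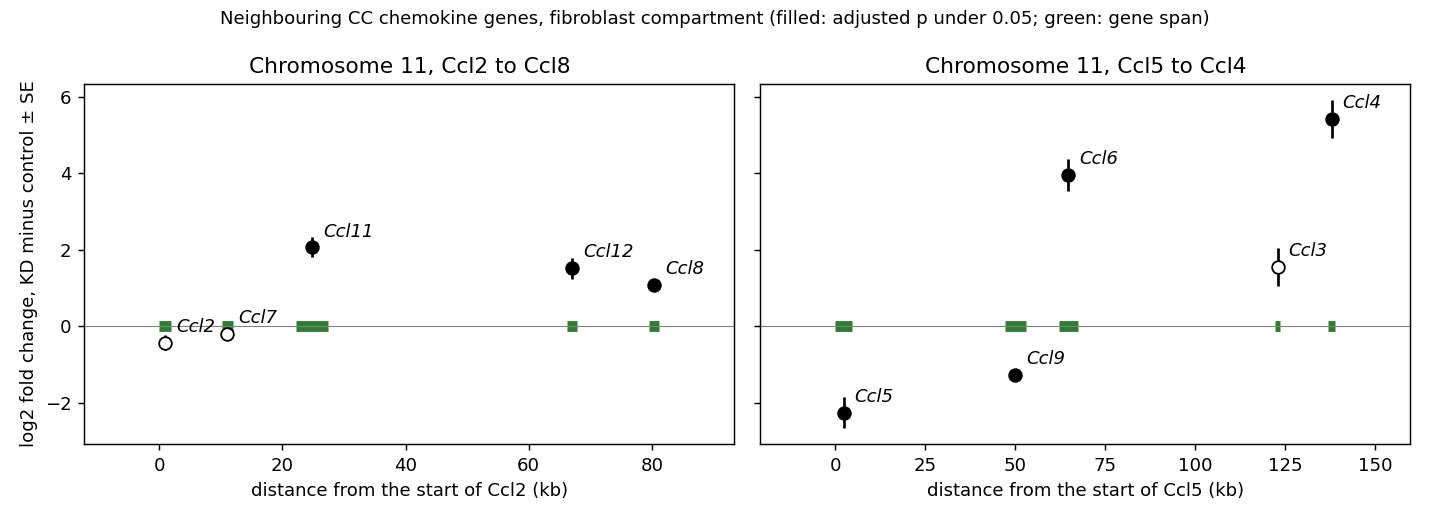
Log2 fold change (KD minus control ± SE, vertical axis) of chemokine genes in the fibroblast compartment against their distance in kb from the start of Ccl2 (left) and of Ccl5 (right) on chromosome 11. Filled points had an adjusted p under 0.05, and green bars mark gene spans; Ccl9 at -1.27 and Ccl6 at 3.96 lie side by side.

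Chromosome 11 carries 12 of the chemokine rows, and neighbours there had different fold changes in the compartment sum. By GENCODE M21 on GRCm38, Ccl2 starts at 82035571 and is followed on the plus strand by Ccl7 (82045712 to 82047525), Ccl11 (82057823 to 82062955), Ccl12 (82101845 to 82103400) and Ccl8 (82115185 to 82116799). Ccl11, Ccl12 and Ccl8 rose and Ccl2 and Ccl7 did not pass. In the second group, Ccl5 (83525778 to 83530518) and Ccl9 (83572919 to 83578636) fell, and Ccl6 (83587882 to 83593087) and Ccl4 (83662584 to 83664683) rose. The fall of Ccl9 was lost at equal class weights, as given above. Ccl3, between them at 83647844 to 83649355, read 0.739 and 0.651 normalised CPM in KD against 0.108 and 0.365 in control fibroblasts and did not pass (adjusted p = 0.0844).

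In the epithelial compartment 3 of 20 tested chemokine genes rose and 1 fell, where 1.44% of all 13952 genes tested were called. The median over the 20 was 0.19 on the log2 scale, beside 0.02 over all genes. Beside Ccl6, Ccl11 and Cxcl14 rose. Ccl11 read 17.2 and 14.0 normalised CPM in KD against 6.17 and 6.33 in control epithelial cells (log2 1.33 ± 0.21, adjusted p = 0.00484). Cxcl14 read 182 and 170 normalised CPM in KD against 102 and 102 in control epithelial cells (log2 0.79 ± 0.17, adjusted p = 0.029), and was lost without control library 1 (0.311) or 2 (0.0971), within 0.00153 to 0.311 over 12 alternatives. In KD AT2 cells of cluster 9, Ccl11 stood at 8.20% and 4.29% of the fibroblast level against 17.2% and 14.6% in controls, where 7 fibroblast markers stood at 8.72% and 6.07% in KD and 11.6% and 7.90% in controls. Cxcl14 stood there at 11.5% and 7.76% of the fibroblast level in KD and 13.4% and 9.78% in controls. The part of free fibroblast RNA in these epithelial values was not tested.

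Cxcl12 was the gene that fell in the cycling AT2 and AT1-like classes. In AT1-like cells it read 16.7 and 16.7 normalised CPM in KD against 39.8 and 38.3 in control cells (log2 -1.22 ± 0.24, adjusted p = 0.0123). In the epithelial compartment as a whole it did not pass, at 23.7 and 15.2 normalised CPM in KD against 38.3 and 31.2 in control cells (adjusted p = 0.0692). The 7 fibroblast markers summed to 616 and 427 CPM in KD against 984 and 820 CPM in control epithelial cells, and 1 of the 7 fell. In AT2 cells of cluster 9, Cxcl12 stood at 13.1% and 6.92% of the fibroblast level in KD and 16.4% and 8.94% in controls. The part of fibroblast RNA in these Cxcl12 values was not tested.

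Cxcl17 fell in the epithelial compartment, at 17.4 and 24.1 normalised CPM in KD against 45.0 and 32.8 in control cells (log2 -0.92 ± 0.20, adjusted p = 0.035), and was lost without control library 1 (0.309, the highest of 12 alternatives, lowest 6.77e-06). Cxcl15 did not pass there, at 3235 and 2261 normalised CPM in KD against 1238 and 2017 in control cells, nor did Cxcl16, at 90.6 and 125 against 89.3 and 114. The fibroblast effect differed from the epithelial effect for 1 of 26 chemokine genes, where 3.55% of all 17188 genes tested differed. This was Cxcl17, at -1.74 ± 0.37 on the log2 scale (adjusted p = 0.0275), lost without control library 1 (0.0778), without KD library 1 (0.104) and under RLE normalisation (0.0521), with 6 alternatives at 2.07e-19 to 0.104. The fibroblast and epithelial effects on Ccl11 differed by 0.75 ± 0.24 (adjusted p = 0.145).

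Genes that act with the chemokines were read from lists by role, set against the 10.6% of all genes called in the fibroblast compartment (4.42% higher and 6.22% lower) and the median of 0.01 over all genes there, and the 2.53% and 2.56% called in inflammatory fibroblasts 1 and 2. Each list named here had at most 4 genes called in a comparison, and nothing is read from their shares. Of 23 chemokine receptor genes, 12 were tested in the fibroblast compartment and 1 rose, Ccrl2, a non-signalling receptor that binds chemerin, at 9.83 and 9.12 normalised CPM in KD against 6.22 and 6.67 in control fibroblasts (adjusted p = 0.033). Of 18 NF-kappaB pathway genes, 18 were tested and 1 rose, Ikbkg, which encodes the scaffold of the IkappaB kinase, with a list median of -0.10 on the log2 scale. Of 24 genes of inducing cytokines and their receptors, 17 were tested, 2 rose (Ifngr1 and Tnfrsf1b, receptor genes of interferon gamma and TNF) and 2 fell. Il1rn, which encodes the interleukin-1 receptor antagonist, was 1 of those that fell, at 2.93 and 2.90 normalised CPM in KD against 6.77 and 7.67 in control fibroblasts (log2 -1.31 ± 0.15, adjusted p = 0.00302), and Il1rap, the accessory chain of the interleukin-1 receptor, was the other. In inflammatory fibroblasts 2, Il1rn was the 1 of 15 tested genes of this list that was called, at 0.76 and 1.88 normalised CPM in KD against 13.4 and 10.5 in control cells (log2 -3.21 ± 0.59, adjusted p = 0.00222). Of 14 other acute inflammatory genes, 3 fell in the fibroblast compartment (Il6, Lif and Csf1) and 1 rose (Csf2), and none of the 12 tested in inflammatory fibroblasts 2 was called. In inflammatory fibroblasts 1, Vcam1, which encodes a leukocyte adhesion molecule, rose, at 731 and 775 normalised CPM in KD against 334 and 390 in control cells (adjusted p = 0.0037). Of 15 interferon response genes tested in the fibroblast compartment, 1 rose, Ifit3, with a list median of 0.06 on the log2 scale. Another, Ifit1, rose in inflammatory fibroblasts 2, at 14.4 and 5.65 normalised CPM in KD against 1.62 and 1.20 in control cells (log2 2.86 ± 0.52, adjusted p = 0.00175). In that class Ifit1 passed the filter on low counts only through the KD libraries, and Il1rn only through the control libraries. Their tests there are no support. Pf4, a platelet chemokine gene outside the name rule, read 5.68 and 6.81 normalised CPM in KD against 1.27 and 1.08 in control fibroblasts (log2 2.40 ± 0.19, adjusted p = 0.000781).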

How the data were processed

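The authors deposited raw UMI counts per gene and cell of 4 libraries made with a 10x kit for RNA and open chromatin, per the labels' protocols; counts were whole numbers and not normalised. Per the submitters' processing notes the build was GRCm38 (mm10); no source used here names the aligner or the counter. The authors also deposited the mitochondrial percent of each cell, which reached 35.0%. Their 15 classes were used, with clusters 9, 14 and 32 of the AT2 class kept apart (14 AT1-like by its markers, 32 unnamed) and 2 mixed clusters (1832 cells) left out because they carried over 33.3% of the fibroblast level of fibroblast markers; no doublet caller was run. A further 54 deposited cell columns were not used.

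Counts were summed per library and class, since cells are not replicates, and a class needed 50 cells in each library to be tested. Testing used edgeR 4.0.16 in R 4.3.3 (quasi-likelihood, TMM, its default low-count filter) with Benjamini-Hochberg adjustment over all genes tested and a threshold of 0.05. Adjusted p-values come from edgeR except where another tool, DESeq2 1.42.0 or voom of limma 3.58.1, is named. The edgeR test was also run on simulated counts made from the fibroblast sums, and no result here rests on that run. Differences between effects were interactions with the library as a block. Cells were thinned to 2000 UMIs for shares. Members and gene lists were chosen with earlier results of these data known. Members named with values are those called in either inflammatory class, a compartment or a difference between classes, plus the 6 of highest mean level in each inflammatory class and the epithelium; others named were chosen after their values were seen. Gene coordinates are GENCODE M21 on GRCm38.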

Additional observations from a re-analysis of the deposited data

Results flagged for a closer look

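The following differed between groups of cells by a test of the difference of effects (log2, KD minus control in each). The effect in inflammatory classes minus that in the other fibroblast classes was -1.08 for Cxcl5, -0.98 for Cxcl14, 0.54 for Ccl2, -0.53 for Cxcl1, -0.64 for Cxcl2 and -0.82 for Ccl11. The effect in inflammatory fibroblasts 2 minus that in inflammatory fibroblasts 1 was 4.56 for Cxcl13 and -0.54 for Cxcl12. The Cxcl13 value rested on few molecules, as given above. The fibroblast minus the epithelial effect was -1.74 for Cxcl17. In the mixed cells left out of the comparisons, Ccl11 averaged 81.0 CPM over the KD libraries (77.9 and 84.1), above 17.6 and 33.2 CPM in the control libraries.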

How the results depend on the processing

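Over 32 called chemokine values and 346 alternative fits, 308 kept their direction and call, 38 kept their direction and lost the call, and none turned direction. In the fibroblast compartment the 11 calls became 19 with a replicate block, under which 33.3% of all genes were called against 10.6% without it, and the same-numbered libraries deviated together with a correlation of 0.26, but the labels do not say that a number pairs libraries. That block gave 3 calls in inflammatory fibroblasts 1, 6 in inflammatory fibroblasts 2 and 5 in the epithelium. Leaving out 1 library at a time gave 2 to 6 calls in inflammatory fibroblasts 1, 3 to 5 in inflammatory fibroblasts 2, 9 to 15 in the fibroblast compartment and 2 to 9 in the epithelium. It gave 1 to 5 differences between fibroblast and epithelial effects and 1 to 5 between inflammatory fibroblasts 2 and 1. Among cells with at most 20% mitochondrial UMIs there were 0 calls in inflammatory fibroblasts 1 and 1 in inflammatory fibroblasts 2 (Ccl11), but 11 and 13 chemokine genes were tested there in place of 20, Ccl6 in neither class, and 0.183% and 0.228% of all genes were called. DESeq2 and limma voom gave 3 each in inflammatory fibroblasts 2. For the fibroblast minus epithelial difference, RLE normalisation gave 0 and no low-count filter 6; for inflammatory fibroblasts 2 minus 1, no filter gave 4. The KD minus control share of fibroblasts with a UMI of Ccl11 was 12.6 percentage points thinned to 2000 UMIs, 21.6 unthinned and 8.62 at 1000 UMIs; for Ccl9 it was -2.05, -2.77 and -1.45. Where calls changed, the cause was not tested. Genes with under 100 UMIs were limited by depth.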

Other observations

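The unnamed epithelial cluster 32, with 21 and 42 KD cells and 82 and 25 control cells, was too small to test. Cxcl1 there read 245 and 220 CPM in KD against 27.0 and 28.5 CPM in control cells, and Cxcl2 read 195 and 65.8 CPM in KD against 5.07 and 9.51 CPM in control cells. Cxcl17 went the other way in it, at 4.14 and 92.6 CPM in KD against 265 and 200 CPM in control cells. These genes were chosen after their values were seen. Ccl5 in the epithelial compartment had 2 and 50 UMIs in KD and 12 and 24 in control cells, and 1 cell of KD library 2 held 42 of the 50.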
